A study of Mus musculus with 6 samples.

Results

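The genes followed here act in the reception and output of Hedgehog signals and were measured on 6 Illumina mouse BeadChip arrays. They were *Ptch1*, *Smo*, *Gli1*, *Gli2*, *Gli3*, *Hhip*, *Sufu*, *Gas1* and *Boc*, and every probe that the platform annotation names for one of these 9 genes was taken, whatever its level. Of the 16593 genes and 25697 probes on the array, 8 of the 9 genes had a probe, with 11 probes in all. *Gli2*, the main activating Gli factor, had none in the annotation and is not analysed here.

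RNA came from calvaria cells of mice, labelled as strain C57BL/6, and was hybridized on 3 arrays labelled *Mmp13* knockout and 3 labelled wildtype. The study's text describes the same arrays otherwise: cells sorted for green fluorescent protein (GFP) from ERα f/f;GFP:*Osx1-Cre* mice, in which the estrogen receptor ERα is deleted where *Osx1* drives Cre, or from GFP:*Osx1-Cre* controls. By that text all 6 arrays carry the *Osx1-Cre* transgene and the same sort. The calvaria cells came from pups a few days old and were cultured. Whether the sort came before or after culture is not stated. Neither source says whether the 3 arrays of a group held RNA of separate animals or cultures, so p-values measure the spread between arrays, which may be technical.

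*Mmp13* went against the label. Its brightest probe read 12.41, 12.91 and 12.79 on the arrays labelled knockout and 8.91, 9.42 and 9.73 on the arrays labelled wildtype, on the normalized log2 scale. The difference was 3.35 ± 0.24 (log2, SE, adjusted p = 0.00048). Its other tested probes were higher too, by 4.03 (adjusted p = 0.0025) and 1.45 (adjusted p = 0.0018). The former was detected on 1 of the arrays labelled wildtype, so its size rests partly on undetected values. The latter was detected on none of them. It entered the test through the arrays labelled knockout alone, so its p carries no weight. The study's text reports *Mmp13* as the most raised gene in the ERα-deleted cells of these arrays, with quantitative PCR beside it. The probes' place relative to a deleted part is not known. For *Esr1*, which encodes ERα, the study also lists quantitative PCR in calvaria cells of control and ERα-deleted mice. Its 2 probes were detected on none of these arrays, so the deletion could not be checked in the array data. The groups are therefore called the arrays labelled knockout and the arrays labelled wildtype throughout, and every direction below is the first against the second. Values are given in the order knockout 1, the first and the second of the knockout arrays whose scanner columns share 1 heading, and wildtype 1, 2 and 3.

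Hedgehog proteins are secreted signals that bind Patched-1, the product of *Ptch1*, on the receiving cell. Patched-1 otherwise keeps Smoothened, the product of *Smo*, out of action. Once released, Smoothened gathers in the primary cilium and the Gli transcription factors are freed from Sufu and turned into activators, while in the absence of signal Gli3 is cut into a repressor. *Gli1*, *Ptch1* and *Hhip* are themselves switched on by the pathway and are used as its readouts. In the skull, Indian hedgehog promotes osteoblast differentiation and suture mesenchyme carries *Gli1*.

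Most of the pathway's core lay under the level that the arrays detected. A probe counts as detected on an array when its detection p, the share of negative control beads at least as bright, is under 0.01. The lowest signal that met this ran from 91.8 to 119.6 over the 6 arrays, and between 40.2% and 43.6% of all probes met it. Of the 11 probes, 7 were detected on no array. These 7 are all the probes of *Ptch1*, *Gli1*, *Hhip*, *Sufu*, *Gas1* and *Boc*, 6 of the 8 genes with a probe. Of all genes on the array, 49.3% were detected on no array. The 7 probes had detection p from 0.01629 to 0.99749 and signals of 0.54 to 0.97 times the lowest detected signal of the same array. An undetected probe gives an upper bound and does not show that a transcript is absent.

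**Figure D1:**
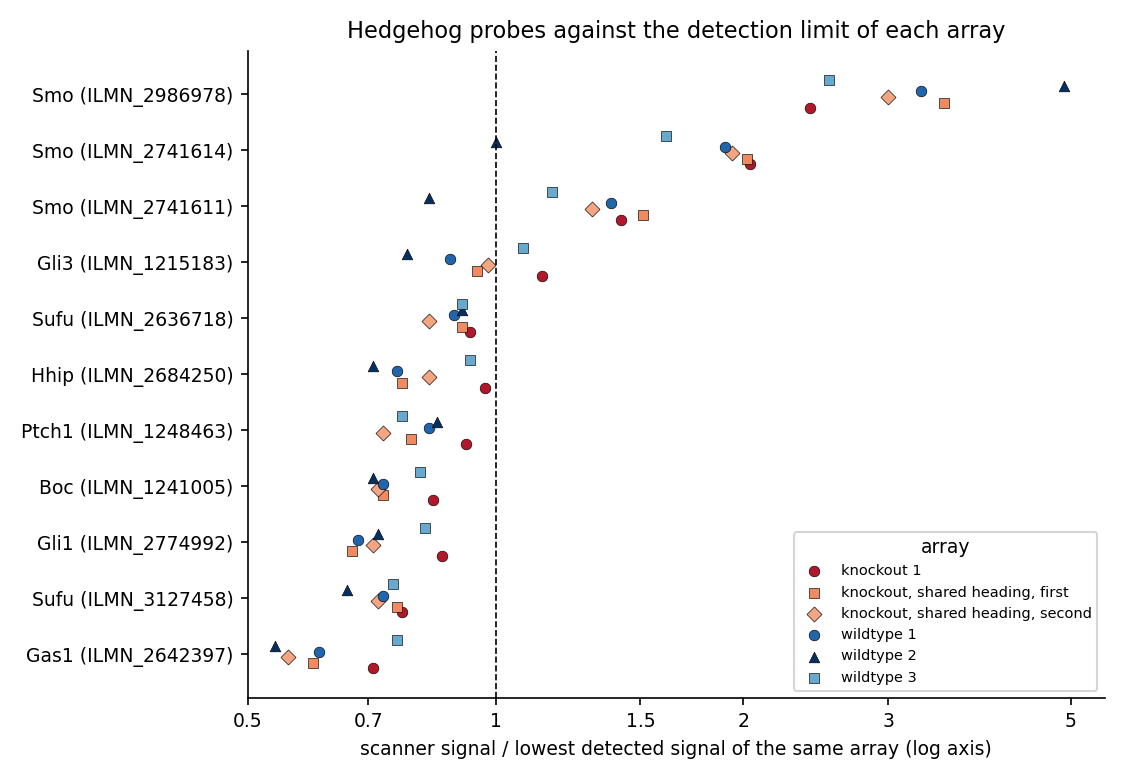
Scanner signal of each of the 11 Hedgehog probes divided by the lowest detected signal of the same array, on a log axis, with 1 point per array and the dashed line at 1. The 3 *Smo* probes lie to the right of the line on most arrays, *Gli3* straddles it and the other 7 probes lie to its left, between 0.54 and 0.97. Positions along the axis do not rank genes, since probes differ in brightness.

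*Smo* was the only one of the 9 genes that could be tested. Probes were tested when detected on at least 3 of the 6 arrays, which held for all 3 *Smo* probes and for none of the other 8. No *Smo* probe passed an adjusted p of 0.05, so 0 member genes were higher and 0 lower. Over the array, 18.1% of 11089 tested probes passed in either direction, and of genes taken by their brightest tested probe 9.62% were higher and 9.93% lower. None of the 3 *Smo* probes reached an unadjusted p of 0.05 either (0 of 3).

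The brightest *Smo* probe, ILMN_2986978, read 7.94, 8.12 and 8.06 on the arrays labelled knockout. It read 8.19, 8.70 and 7.90 on the arrays labelled wildtype, where replicate 2 was the highest of all 6 arrays and replicate 3 the lowest. The means were 8.04 ± 0.09 and 8.26 ± 0.40 (SD, n = 3 each) and the groups overlapped. The difference was -0.22 (log2, SE 0.21, adjusted p = 0.47), with a 95% interval of -0.71 to 0.27. The scanner signals behind these values were 221.4, 387.7 and 337.4, then 364.5, 577.1 and 303.3, which is 2.41 to 4.91 times the lowest detected signal.

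The other 2 *Smo* probes leaned the other way. ILMN_2741614 read 7.58, 7.12 and 7.22 on the arrays labelled knockout and 7.14, 5.58 and 6.90 on the arrays labelled wildtype. ILMN_2741611 read 6.64, 6.48 and 6.32, then 6.41, 4.91 and 5.98. At each of them wildtype 2 lay far below the other 5 arrays, while wildtype 1 lay within the range of the arrays labelled knockout. The differences were 0.77 (SE 0.40, 95% interval -0.19 to 1.72, adjusted p = 0.22) and 0.71 (SE 0.36, 95% interval -0.15 to 1.58, adjusted p = 0.21). These intervals hold both no difference and a difference of more than 1.5 on the log2 scale, so neither a change nor its absence can be read from them.

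Wildtype 2 stood apart from the other arrays at the *Smo* probes, and not always in the same direction. It was the lowest array at ILMN_2741611 and ILMN_2741614 and the highest at ILMN_2986978. Its signal at ILMN_2741611 was 98.1 with a detection p of 0.08897, under the limit, while the other 5 arrays read 130.8 to 166.4. Without wildtype 2 the differences were 0.29, 0.29 and -0.0043, with adjusted p of 0.26, 0.26 and 0.99. With that array also left out of the normalization, a step added after the data had been seen, they were 0.28, 0.28 and -0.0035. Over all tested probes wildtype 2 was the lowest or the highest of the 6 arrays at 60.5%, against 22.2% to 32.6% for each other array. Tested probes of 1 gene differed in sign in 750 of the 2015 genes with 2 or more (37.2%), so *Smo* is not alone in this. The part of the *Smo* transcript that each probe targets is unknown here, and the part of transcript form in the disagreement was not tested.

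**Figure D2:**
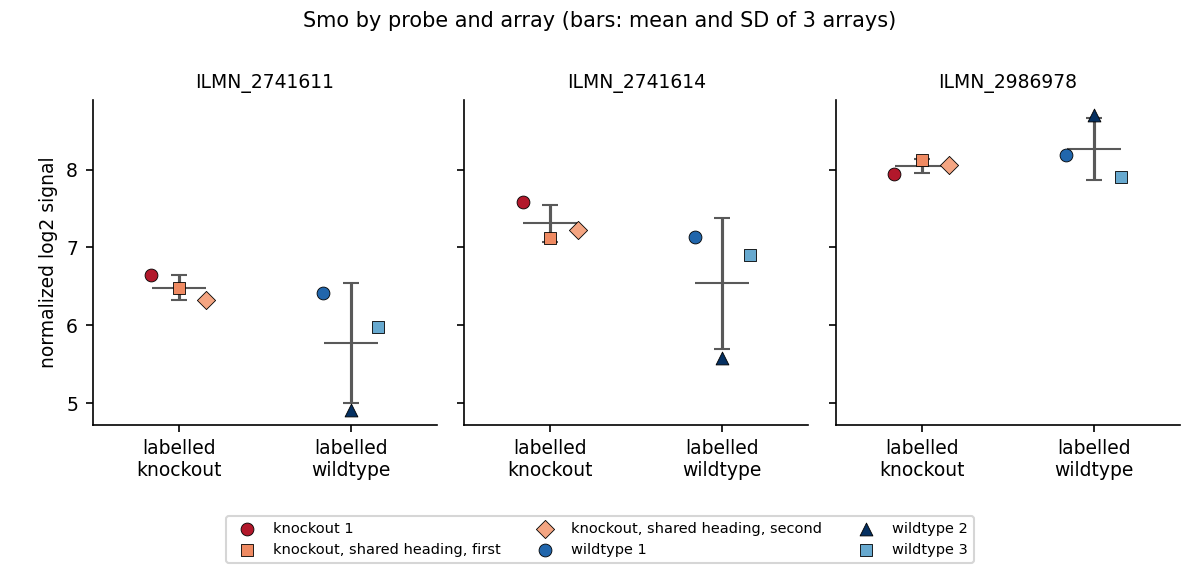
Normalized log2 signal of the 3 *Smo* probes on each array, with the mean and SD of 3 arrays per group as bars. Wildtype 2 is lowest at ILMN_2741611 (4.91) and ILMN_2741614 (5.58) and highest at ILMN_2986978 (8.70), and the other 5 arrays lie close together at each probe.

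The authors' own normalized table, whose columns name all 6 samples, also had wildtype 2 highest at the brightest *Smo* probe and lowest at the others. There ILMN_2986978 read 8.27, 8.42 and 8.37 on knockout 1, 2 and 3 and 8.47, 8.89 and 8.24 on wildtype 1, 2 and 3. ILMN_2741614 read 8.0, 7.68 and 7.75, then 7.69, 6.84 and 7.54. ILMN_2741611 read 7.38, 7.28 and 7.19, then 7.24, 6.58 and 7.02. In the same test that table gave differences of -0.18, 0.45 and 0.33 for these probes, with adjusted p of 0.43, 0.18 and 0.19.

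Among the Gli factors, *Gli3* alone came near to measurement. Gli3 is the main repressor form of the family. Its probe, ILMN_1215183, gave signals of 104.6, 104.7 and 110.0 on the arrays labelled knockout and 97.6, 91.2 and 129.7 on the arrays labelled wildtype. It was detected on 2 of 6 arrays, knockout 1 (detection p 0.00125) and wildtype 3 (detection p 0.00251), 1 in each group. On the normalized log2 scale it read 5.87, 5.21 and 5.42, then 4.96, 4.69 and 5.70, so the groups overlapped. When all probes were fitted without a detection filter, its difference was 0.38 ± 0.29 (SE, adjusted p = 0.56). In the authors' normalized table it lay between 6.70 and 6.97 and between 6.48 and 6.89.

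*Gli1*, the factor whose transcript follows pathway activity most directly, was not detected. Its signals were 79.3, 74.3 and 79.5, then 75.8, 85.0 and 98.1, and its detection p ran from 0.22055 to 0.84962. These values lay at 0.67 to 0.86 times the limit. The highest signal, 98.1 on wildtype 3, was 0.82 times the limit of that array, and relative to the limit no array stood out.

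The receptor *Ptch1* and the decoy receptor *Hhip*, which binds Hedgehog proteins at the cell surface and is induced by them, were likewise under the limit. *Ptch1* read 84.3, 87.2 and 82.5, then 91.8, 99.8 and 91.6, with its lowest detection p at 0.06391 on knockout 1. *Hhip* read 89.5, 84.6 and 93.1, then 83.9, 83.4 and 111.1. Its detection p was 0.01629 on knockout 1 and 0.04637 on wildtype 3, close to the limit on 1 array of each group, and up to 0.52632 elsewhere. Knockout 1 and wildtype 3 are also the arrays on which *Gli3* was detected. Of all probes these arrays detected 43.6% and 42.9%, the highest shares, so the coincidence is not particular to Hedgehog genes.

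*Sufu*, which holds Gli proteins in the cytoplasm, had 2 probes. ILMN_2636718 came near the limit on every array, with signals of 85.7, 100.3 and 93.7, then 98.0, 107.4 and 109.1, and a detection p between 0.02381 and 0.07143. It passed the looser detection p of 0.05 on 3 arrays, knockout 1, the first array of the shared heading and wildtype 2. ILMN_3127458 read 70.3 to 89.2 with a detection p from 0.22807 to 0.78446. The 2 probes thus differed in how near they came to detection, and neither had a level from which *Sufu* could be compared.

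*Gas1* and *Boc* encode cell surface co-receptors that help Patched-1 bind Hedgehog proteins. *Gas1* read 62.7 to 67.5 on all arrays but wildtype 3 (90.3), and its detection p was 0.69173 or higher on each array. *Boc* read 76.8, 80.2 and 80.9, then 80.9, 83.9 and 96.9, with a detection p between 0.34837 and 0.60902. For *Gas1*, *Boc* and *Gli1* the highest scanner signal was on wildtype 3, the array with the highest median signal (108.9, against 85.1 to 98.7).

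A looser filter, a detection p under 0.05 on at least 3 arrays, let in *Gli3* and the first *Sufu* probe, and neither passed (adjusted p = 0.39 and 0.68). Fitting all probes without a detection filter changed no call either. Under that fit 0 of the 8 otherwise untested probes passed, 0 reached an unadjusted p of 0.05 and their adjusted p ran from 0.56 to 0.99. With the authors' table and no filter, the test that the study's methods describe, the adjusted p of the same 8 probes ran from 0.55 to 0.97. Across 20 alternative analyses a member gene was called in 0, though the authors' table and the fit without background correction gave the same values. No fold is given for a probe that neither group detected. With 3 arrays against 3, an exact permutation test of 1 probe cannot go below p = 0.1.

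The rest of the pathway was described through 4 lists of other genes, each gene taken by its brightest tested probe. Over all tested genes the median difference was -0.04. In bulk RNA of sorted cells, fewer cells of a type and less RNA per cell cannot be told apart, which holds for every difference below.

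Of 14 genes for Hedgehog ligands, their release and their co-receptors with a probe, 6 were tested, 1 was higher and 1 lower, with a median of -0.18 (all genes: 9.62% higher, 9.93% lower). *Shh* (2 probes) and *Ihh* (1 probe), the ligands known from skull and growth plate, were detected on no array, with signals of 71.6 to 98.3 for *Shh* and 72.6 to 101.4 for *Ihh*. *Disp1*, the transporter that releases the lipid-bearing ligand from the cell that makes it, fell. It read 8.35, 8.38 and 8.43 on the arrays labelled knockout and 9.07, 9.20 and 9.15 on the arrays labelled wildtype. The groups did not overlap, and the difference was -0.76 ± 0.10 (SE, adjusted p = 0.0035). No called gene of the 4 lists overlapped either. The share of all tested probes without overlap was not counted, so this adds nothing to the calls.

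*Dhh*, the ligand known from testis and peripheral nerve, was detected on the 3 arrays labelled knockout and on none labelled wildtype. It read 5.45, 5.40 and 5.59, then 4.85, 4.6 and 5.11. It met the detection filter through the arrays labelled knockout alone, so a probe with its pattern could hardly enter the test without differing, and its count as the list's 1 higher gene carries no weight. Its adjusted p was 0.035 and it was at least 1.02-fold higher, a bound with the undetected group set at its detection limit or its own value where that was higher. The call was lost in 8 of 11 alternatives, among them the authors' table (adjusted p = 0.085). It was also lost without knockout 1, either array of the shared heading or wildtype 1 (adjusted p from 0.1 to 0.13).

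Genes of intracellular transduction had a share of lower calls near that of all genes. Of 29 with a probe, 23 were tested, 0 were higher and 2 lower, with a median of -0.01 (all genes: 9.62% higher, 9.93% lower). *Adcy6*, an adenylyl cyclase whose product cAMP activates the kinase that restrains Gli proteins, read 7.67, 7.17 and 7.30, then 8.37, 8.79 and 7.86. It fell by 0.96 (log2, SE 0.25, adjusted p = 0.045) at its only tested probe, and its other probes were detected on no array. *Smurf1*, a ubiquitin ligase, read 5.75, 5.32 and 5.55, then 6.24, 6.17 and 5.93, and fell by 0.57 (SE 0.15, adjusted p = 0.045). Neither call was firm: *Adcy6* lost it without knockout 1, either array of the shared heading or wildtype 1 (adjusted p from 0.076 to 0.16), and *Smurf1* in 10 of 11 alternatives. The genes of this list that did not pass include *Gsk3b* (-0.27, adjusted p = 0.26), *Spop* (0.03, adjusted p = 0.92), the ciliary scaffold pair *Evc* (-0.34, adjusted p = 0.36) and *Evc2* (-0.48, adjusted p = 0.24), and *Gnas* (0.58, adjusted p = 0.21).

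The primary cilium, the compartment in which Smoothened acts, was well covered. Of 34 genes with a probe, 27 were tested, 1 was higher and 1 lower, with a median of 0.00 (all genes: 9.62% higher, 9.93% lower). *Ift81*, a subunit of the intraflagellar transport train, read 8.68, 8.96 and 8.81, then 8.41, 8.34 and 8.37, a rise of 0.45 (SE 0.11, adjusted p = 0.037). Its other tested probes gave 0.14 and 0.28 and did not pass (adjusted p = 0.31 and 0.18). *Kifap3*, the accessory subunit of the kinesin that pulls this train, read 9.36, 9.63 and 9.69, then 10.04, 10.03 and 10.16, and fell by 0.51 (SE 0.12, adjusted p = 0.034). A second *Kifap3* probe fell by 0.69 (adjusted p = 0.026) and the other gave -0.22 (adjusted p = 0.37). Each call at the brightest probe was lost without knockout 1, either array of the shared heading or wildtype 1 (adjusted p from 0.061 to 0.13), and that of *Ift81* also without wildtype 2 (adjusted p = 0.05 after rounding).

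Genes known as Gli targets in other settings were the list with the most calls. The list was chosen with earlier results of these data known, so its share of calls is not a test. Of 26 with a probe, 14 were tested, 5 were higher and 0 lower, with a median of 0.13 (all genes: 9.62% higher, 9.93% lower, median -0.04). *Osr2*, a zinc finger factor of craniofacial and limb mesenchyme, read 7.82, 7.96 and 7.96 on the arrays labelled knockout and 6.14, 5.88 and 6.24 on the arrays labelled wildtype. It rose by 1.82 (SE 0.13, adjusted p = 0.00048). The size depended on the background step, with a rise of 1.17 without background correction or in the authors' table and 1.27 with the saddle-point fit. *Sfrp1*, a secreted Wnt antagonist, read 10.17, 10.20 and 10.06, then 8.72, 8.86 and 9.15, a rise of 1.24 (SE 0.14, adjusted p = 0.0021). *Foxc2*, a forkhead factor of skeletal mesenchyme, read 7.91, 7.89 and 7.81, then 6.52, 6.66 and 6.79, a rise of 1.21 (SE 0.11, adjusted p = 0.0011). Its rise was 0.83 without background correction or in the authors' table. In each of these genes all 3 arrays labelled knockout lay above all 3 labelled wildtype, and the call held in all 11 alternatives.

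*Foxm1* and *Bmp4* rose by less. *Foxm1*, a forkhead factor of dividing cells, read 7.05, 7.01 and 7.01, then 6.44, 6.49 and 6.41, a rise of 0.58 (SE 0.09, adjusted p = 0.0087), and its second probe rose by 0.69 (adjusted p = 0.0083). The rise of 0.58 became 0.35 without background correction or in the authors' table. *Bmp4*, a bone morphogenetic protein, lay between 9.98 and 10.06 on the arrays labelled knockout and read 9.54, 9.72 and 9.30 on the arrays labelled wildtype, a rise of 0.50 (SE 0.13, adjusted p = 0.044). *Foxm1* did not pass without the second array of the shared heading (adjusted p = 0.052), and *Bmp4* did not pass without knockout 1, either array of the shared heading or wildtype 1 (adjusted p from 0.12 to 0.15). Without the second array of the shared heading 3 genes of this list were higher in place of 5.

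The other tested genes of that list did not pass. They include the cell cycle genes *Ccnd1* (-0.03, adjusted p = 0.85) and *Ccnd2* (-0.18, adjusted p = 0.36), and *Hes1* (-0.39, adjusted p = 0.072). *Tsc22d1*, named here after its values had been seen, had the largest difference of the list and still did not pass. Its tested probe read 10.02, 9.79 and 9.72, then 8.74, 5.18 and 9.71, with a difference of 1.97 (SE 1.07, adjusted p = 0.23). The arrays labelled wildtype had an SD of 2.38 at this probe, with wildtype 2, the array that also stood apart at the *Smo* probes, at 5.18. *Foxf1*, *Foxf2*, *Foxl1*, *Nkx3-2*, *Bcl2* and *Mycn* were not tested. With *Ptch1*, *Gli1* and *Hhip* undetected, the classical readouts of the pathway gave no value to set beside the called targets.

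**Figure D3:**
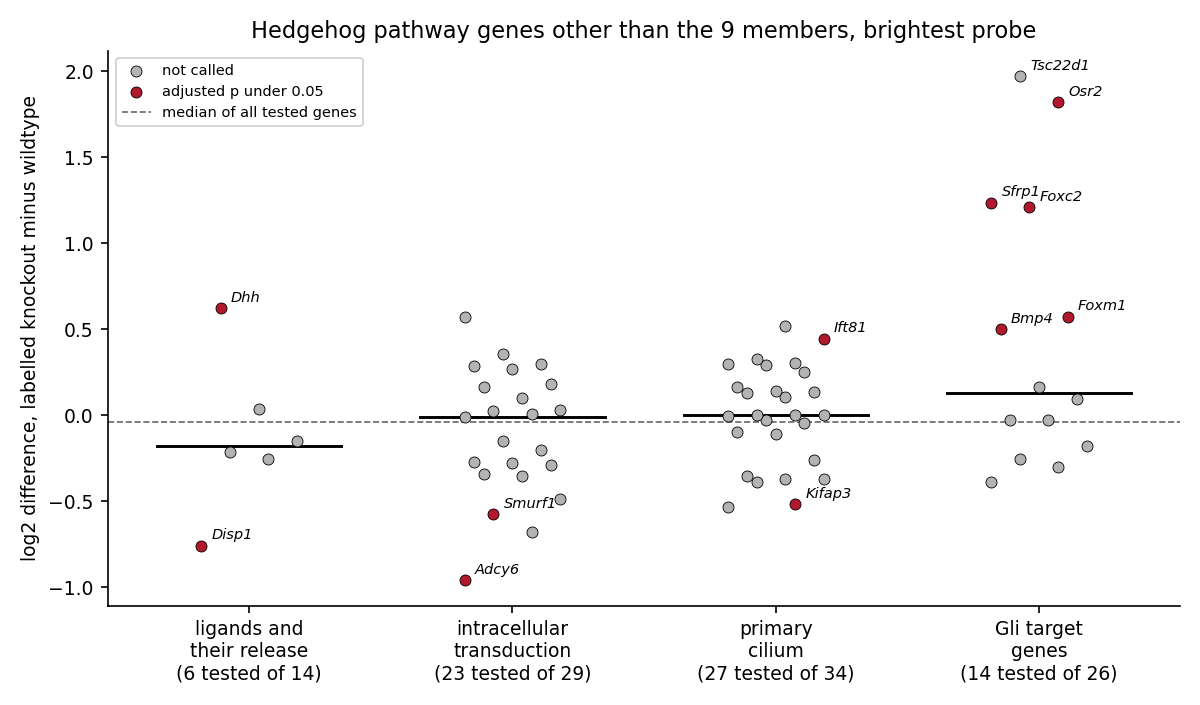
Log2 difference between the arrays labelled knockout and wildtype for each tested gene of the 4 lists, by the brightest probe, with genes past an adjusted p of 0.05 in red, the list median as a solid bar and the median of all tested genes (-0.04) as a dashed line. Calls are 1 higher and 1 lower for ligands, 2 lower for transduction, 1 higher and 1 lower for the cilium and 5 higher for Gli targets, and *Tsc22d1* lies highest (1.97) without passing.

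**Figure D4:**
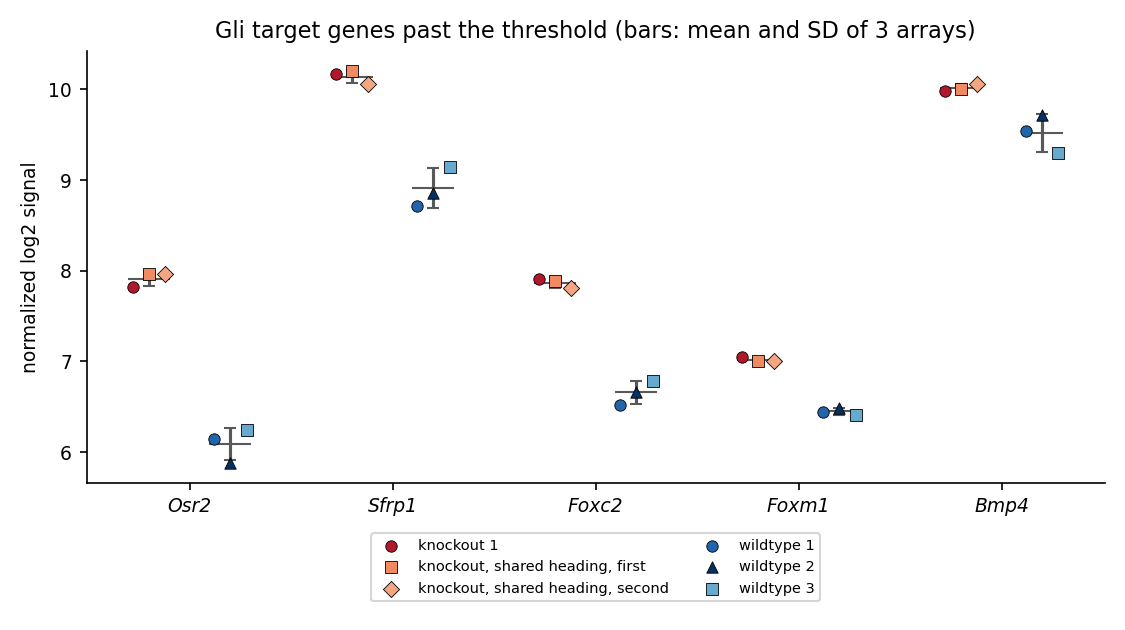
Normalized log2 signal of the 5 Gli target genes past the threshold on each array, with the mean and SD of 3 arrays per group as bars. For each gene the 3 arrays labelled knockout lie above the 3 labelled wildtype, by 1.82 on average for *Osr2* and by 0.50 for *Bmp4*. The groups did not overlap at any called gene of the lists, a trait that was not counted over all tested probes and adds nothing to the calls.

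Markers of cell state and cell type moved beside these genes. All 5 tested genes that mark G2 and M phases, when cells prepare to divide and divide, were higher (all genes: 9.62% higher, 9.93% lower), and their list's summed level was 3961 to 4373 on the arrays labelled knockout and 1151 to 1543 on the arrays labelled wildtype. Among osteoblast lineage genes 4 of 7 tested were higher (*Alpl*, *Bglap*, *Bglap2* and *Ibsp*) and 1 was lower. *Ibsp* was detected on none of the arrays labelled wildtype and so tested only through the group where it was high. *Col1a1* (-0.17, adjusted p = 0.59) and *Col1a2* (0.41, adjusted p = 0.078) did not pass, and *Dmp1* and *Phex* were detected on no array. The list's summed level overlapped, at 26183 to 30325 on the arrays labelled knockout and 20424 to 29450 on the arrays labelled wildtype. The lower gene was *Sp7*, which encodes Osx1. It was detected on all 6 arrays and read 9.55, 9.36 and 9.40, then 10.40, 10.18 and 10.11 (difference -0.80, SE 0.12, adjusted p = 0.0073). Of 6 suture mesenchyme genes, 1 was higher and 1 lower, with a median of -0.43. The higher one, *Postn* (0.88, adjusted p = 0.041), was detected on 1 array labelled wildtype, and the lower one, *Msx2* (-1.07, adjusted p = 0.001), on all 6 arrays. Their list's summed level was 2053 to 2203 on the arrays labelled knockout and 2342 to 2476 on the arrays labelled wildtype. Of 2 tested cartilage genes none passed (0 of 2).

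Of 10 genes that mark macrophages or osteoclasts and had a probe, 5 were tested, 4 of them were lower on the arrays labelled knockout (all genes: 9.93% lower), and 4 of the 10 were detected on no array. The lower ones were the myeloid genes *Adgre1*, *Lyz2*, *Tyrobp* and *Ctss*. *Tyrobp* was tested only through the group where it was high. The osteoclast protease gene *Ctsk* did not pass (0.12, adjusted p = 0.40) and *Acp5* was not detected. The summed level of all 10 genes was 5673 to 6201 on the arrays labelled knockout and 7317 to 8499 on the arrays labelled wildtype. This sum includes *Ctsk* and so does not measure the myeloid genes alone. *Tyrobp* was detected on none of the arrays labelled knockout and *Lyz2* on all 6 arrays. None of 5 endothelial genes with a probe could be tested (0 of 5). The part of cell division, of osteoblast stage and of macrophage RNA in the differences of *Osr2*, *Sfrp1*, *Foxc2*, *Foxm1*, *Bmp4* and *Disp1* was not tested.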

How the data were processed

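Gene expression was measured on 6 Illumina MouseRef-8 arrays, 3 labelled knockout and 3 labelled wildtype. The deposited scanner table holds signal intensities that the authors took from BeadStudio, not normalized, with a detection p-value beside each intensity. The authors' normalized table holds log2 values made by quantile normalization with the lumi package (version not given in the sources used here). All columns were used (0 left out). The 2 tables were joined by the probes' ranks on the 4 arrays that both name, which linked all 25697 probes one to one. In the scanner file, 2 knockout columns share 1 heading and were used by group only. Probes were named from the platform annotation (23978 with 1 gene, 1719 not listed there). No genome build is named, so no coordinates are given.

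Background correction and quantile normalization of the intensities used neqc (offset 16) of limma 3.58.1 in R 4.3.3. Probes that 3 or more of the 6 arrays detected (p under 0.01) were tested with lmFit and eBayes, without covariates. Benjamini-Hochberg adjustment ran over the 11089 tested probes, with a threshold of 0.05. The code was tested on simulated data. A summed level adds the normalized linear signals of a list's genes with a probe, each at its brightest probe. Arrays of the same number did not deviate together from their group means (r = 0.105, -0.055 and -0.05), so arrays were not treated as paired. The number of arrays limits the precision.

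The 9 genes and all lists were chosen with earlier results of these data known. Named were all members with every probe, up to 5 called genes of each pathway list by size of change, the ligands, *Mmp13* and *Esr1*, and for each called member the genes of most like pattern, of which there were none because no member was called. List genes that did not pass were named as examples after their values were seen. Alternatives covered background correction, scaling, the authors' table, filters, variance model, the replicate block and leaving out each array. The authors' table and the fit without background correction gave the same values, so in counts of alternatives they are not separate checks. No slide or scan date is named in the files, so none was used as a block.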

Additional observations from a re-analysis of the deposited data

How the results depend on the processing

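No member gene was called in any of the 20 alternatives. The *Smo* probes had 18, 19 and 19 of their own, with differences from 0.28 to 1.03, 0.28 to 1.06 and -0.4 to -0.0035, the last no direction. Across the array, 2004 probes passed, and 743 to 3500 with 1 array left out, the most without wildtype 3. Median scaling, which moved the median of all tested probes from -0.025 to -0.167, gave 1093. The replicate block on the authors' table gave 1331, against 2129 without it, and 0 members higher or lower either way. The numbers pair no samples.

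Among the ligands, 1 gene was higher, and 0 without background correction, with the saddle-point fit, with median scaling and in the authors' table (0 to 1 with an array left out). In transduction the 2 lower genes became 1 in those 4 settings and 0 with cyclic loess (0 to 4 with an array left out), and the higher ones 0 to 2. In the cilium, median scaling left 0 higher and 0 lower, and the lower gene became 2 without background correction, with the saddle-point fit and in the authors' table. With an array left out the cilium had 0 to 3 higher and 0 to 2 lower. The 5 higher Gli targets became 3 with median scaling, where *Foxm1* (0.48, adjusted p = 0.22) and *Bmp4* (0.30, adjusted p = 0.51) did not pass, and 3 to 5 with an array left out, and the lower ones 0 to 1. *Osr2*, *Sfrp1*, *Foxc2* and *Disp1* passed in all 11 alternatives. The causes were not tested. Leaving out an array also leaves fewer degrees of freedom. Signals under the detection limit set what can be said of *Ptch1*, *Gli1*, *Hhip*, *Sufu*, *Gas1* and *Boc*.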
